A study of Mus musculus with 4 samples.

Results

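The 10 genes described here are *Gclc*, *Gclm*, *Gsta4*, *Gpx1*, *Txnrd1*, *Srxn1*, *Prdx2*, *Cat*, *Sod2*, and *Nqo1*, genes of glutathione metabolism and antioxidant defense, out of 32285 genes in the count matrices. They were selected on measured values: levels by cell class and library in these same data put them together, so all levels and differences below are descriptions and none carries a test. Single-cell RNA-sequencing (scRNA-seq), in which every mRNA molecule is counted through a unique molecular identifier (UMI) and every droplet through a barcode, gave 4 libraries with 1 library per group. The groups were spleen of control (CS) and tumor-bearing (TS) and bone marrow of control (CBM) and tumor-bearing (TBM) animals, all wild-type C57BL/6J mice aged 8 to 16 weeks. The study's methods give female mice, a subcutaneous transplant of PyMT-B6 cells in the flank for the tumor-bearing mice, and PBS for the controls. PyMT-B6 is a line grown from mammary tumors of mice that carry the polyoma middle T oncogene under the MMTV promoter, so the tumor is transplanted and not of the mouse's own mammary gland. Both tissues were digested, depleted of lineage-positive cells, sorted for c-Kit+ progenitors and CD45- populations, and pooled at equal ratios. A class's number of cells therefore describes the pool and not the organ, and the number of mice behind a library is not given in the sources used here.

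Barcodes with at least 1000 genes and at most 10% mitochondrial UMIs were kept as cells. There were 3497 (CBM), 4340 (TBM), 3236 (CS), and 5188 (TS), with medians of 13738, 14386, 26323, and 26808 UMIs. They fell into 36 clusters, made without the 10 genes and without 61 other genes of the same pathways. 23 clusters were named from marker genes, which gave 12 classes and 34 groups of a class in a library with at least 50 cells. Names are rebuilt from markers and stand for "like" the type: hematopoietic stem and progenitor cells (HSPC), granulocyte-monocyte progenitors (GMP), and so on. The unnamed clusters held 14.4% of the CBM, 17.6% of the TBM, 33.3% of the CS, and 29.1% of the TS cells. 27 barcodes occurred in more than 1 library. A level is given as CPM, the summed UMIs of a gene per 1000000 UMIs of the group, with an exact Poisson 95% interval in brackets. The intervals cover counting error only, since no group has a second library, and a difference between libraries cannot be told apart from a difference between mice, preparations, or runs.

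Glutathione is the main small thiol of the cell. GCLC and GCLM are the catalytic and the modifier subunit of glutamate-cysteine ligase, which makes the first and limiting step of its synthesis, GPX1 spends it on hydrogen peroxide and lipid peroxides, and GSTA4 couples it to the lipid aldehyde 4-hydroxynonenal. TXNRD1 recycles thioredoxin, PRDX2 and catalase break down peroxide, SRXN1 repairs overoxidized peroxiredoxins, SOD2 removes superoxide in mitochondria, and NQO1 reduces quinones. Many of these genes are known targets of NRF2, a transcription factor that is released from KEAP1 under oxidative or electrophilic stress and binds antioxidant response elements (AREs). Red cell precursors, which load iron and heme and end up carrying oxygen, are known for large amounts of peroxiredoxin 2, catalase, and glutathione peroxidase 1.

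The sequence known for NRF2 was looked for in the promoters of the genes, since NRF2 is a known regulator of many of them. The ARE core TGACNNNGC was searched on both strands in the 250 bases before each start site of RefSeq's promoter windows (GRCm38.p6). 8 of the 10 genes matched an entry, with 10 promoters, and *Gclc* and *Gsta4* had none. The core was present in 2 of these 10 promoters, against 3338 of all 32851 promoters (10.2%). The *Gclm* match lies at chr3:122245423-122245431, on the reverse strand, in bases 134 to 126 before the start site. The *Txnrd1* match lies at chr10:82859114-82859122, also on the reverse strand, in bases 92 to 84 before 1 of its 3 start sites. Both are printed on the strand of their gene (plus) with 15 bases to each side, chr3:122245408-122245446 and chr10:82859099-82859137, and with the match in capitals:

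Gclm: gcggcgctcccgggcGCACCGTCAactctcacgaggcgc

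Txnrd1: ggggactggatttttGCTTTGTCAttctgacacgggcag

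These are matches of letters, and binding of NRF2 there was not measured. In the annotation of the same build (GENCODE), *Gclm* (ENSMUSG00000028124) spans chromosome 3, 122245557 to 122270732, and *Gsta4* (ENSMUSG00000032348) spans chromosome 9, 78182774 to 78209349, both on the plus strand. *Gclc* (ENSMUSG00000032350) lies on the same chromosome and strand as *Gsta4*, from 77754535 to 77794485. *Prdx2* overlaps *Junb* and *Rnaseh2a* on the opposite strand. *Gclm* overlaps *Gm17494* on the opposite strand and, on its own strand, the pseudogene *Gm6061*, which is not in the matrices. *Txnrd1* overlaps *Eid3* on its own strand, so its counts depend on how reads of the shared stretch were assigned.

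The classes differed widely in level. For *Gclc*, *Gclm*, *Gsta4*, *Gpx1*, *Prdx2*, *Sod2*, and *Nqo1* the highest of the 34 groups was an erythroid one. For *Txnrd1* it was HSPC in TS, for *Cat* B-lineage cells in CBM, and for *Srxn1* megakaryocyte-like cells in CBM. *Gsta4*, *Srxn1*, and *Nqo1* were sparse, with at least 10 CPM in 4, 3, and 7 of the 34 groups, while *Gclm*, *Gpx1*, *Txnrd1*, *Prdx2*, and *Sod2* reached this level in all 34.

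**Figure D1:**
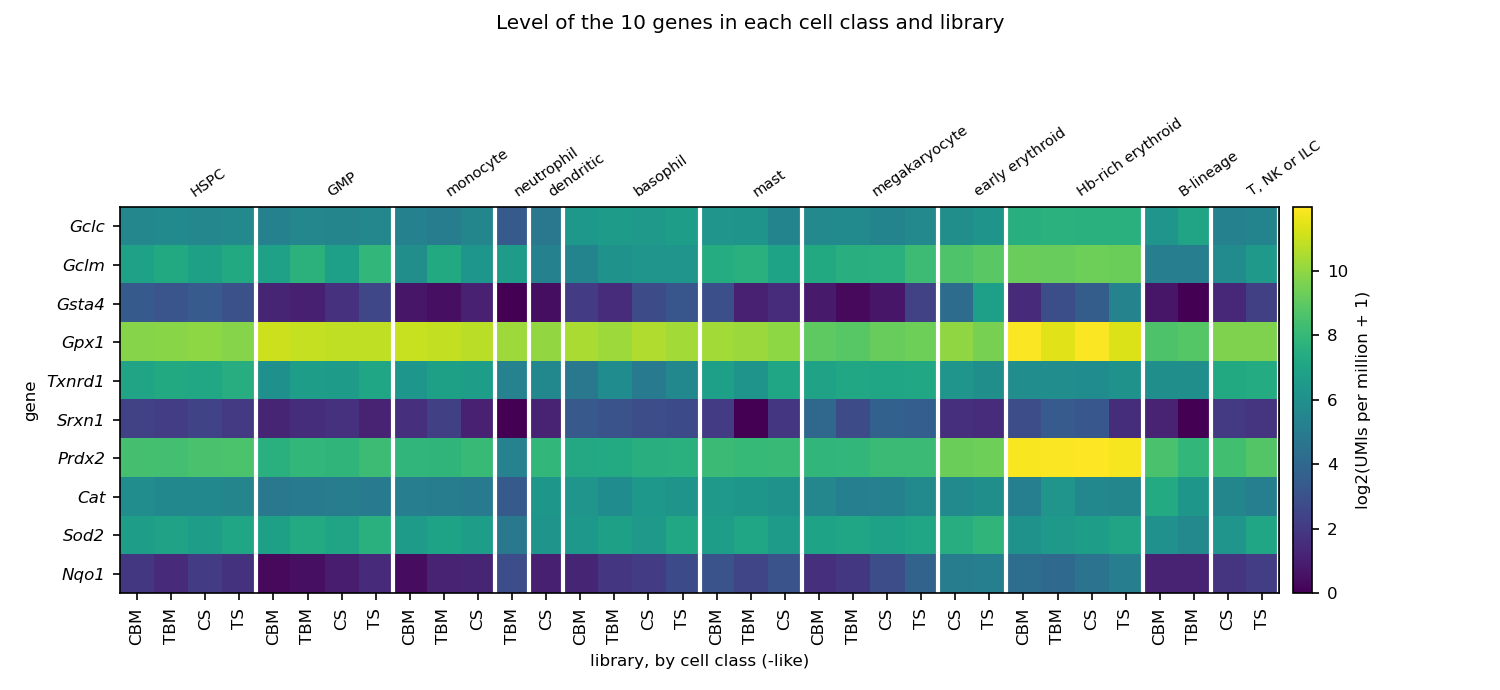
Level of the 10 genes (rows) in the 34 groups of a cell class in a library (columns), as the color of log2(CPM + 1). *Gpx1* and *Prdx2* were brightest in hemoglobin-rich erythroid cells, and *Gsta4* had its highest level, 109 CPM, in early erythroid cells of TS.

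*Gsta4* was the member that differed most between control and tumor-bearing spleen. Its level in early erythroid-like cells was 17.5 CPM [16.4, 18.7] in the 794 cells of CS and 109 [106, 111] in the 1980 cells of TS. TS was 6.20-fold higher, a log2 ratio of 2.63 [2.53, 2.73], the second highest of 7203 genes in this comparison. It was the only member past 2-fold among 9 measured there, where 0.902% of all genes were past 2-fold. Cell by cell the shift was broad: the median cell had 0 *Gsta4* UMIs in CS (quartiles 0 and 2) and 4 in TS (2 and 6), although the CS cells were deeper, with a median of 62261 against 38676 UMIs. With every cell thinned to 5000 UMIs, 6.42% of the CS cells [4.82, 8.36] and 39.2% of the TS cells [37.0, 41.4] had a *Gsta4* UMI, against 46.9% and 91.0% before thinning.

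Different clusters held this class in the 2 libraries. Of the CS cells, 88.4% were in cluster 9, and of the TS cells 47.7% were in cluster 1 and 51.9% in cluster 3. Cluster 1 was the only one with at least 50 early erythroid cells of both spleens, 75 of CS and 945 of TS. Within it *Gsta4* was 23.8 CPM [19.6, 28.7] in CS and 102 [98.2, 105] in TS, a log2 ratio of 2.09 [1.82, 2.38]. The level in cluster 9 of CS was 16.7, and that in cluster 3 of TS was 115. The difference was thus above 2-fold also among cells of 1 cluster, though smaller. Cells of CS and TS within cluster 1 need not be alike, and whether they were of the same stage was not tested.

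The later, hemoglobin-rich erythroid cells ran the same way at lower levels, with 10.6 CPM [6.03, 17.1] in CS and 40.5 [29.1, 54.9] in TS. The ratio of 1.94 [1.08, 2.87] rests on 16 and 41 UMIs. The median share of mitochondrial UMIs in these cells moved with it, at 1.75% in CS and 3.3% in TS, and with at most 5% mitochondrial UMIs per cell the ratio was 1.60. In marrow these cells had 1.67 CPM in CBM and 6.25 in TBM, from 3 and 14 UMIs. The intervals of these levels overlapped, and that of the ratio, 1.91 [0.07, 4.35], lay just above 0. Marrow held only 40 early erythroid cells in CBM and 34 in TBM, under the minimum of 50. Cluster 9 held 62.5% of the former and cluster 1 held 85.3% of the latter. They had 5 and 22 *Gsta4* UMIs, or 3.21 [1.04, 7.48] and 13.7 CPM [8.56, 20.7], whose intervals did not overlap.

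Outside the erythroid cells *Gsta4* was low in all 4 libraries. HSPC had 9.44 CPM (CBM), 7.83 (TBM), 9.90 (CS), and 6.79 (TS), with overlapping intervals. No other class passed 8.24 CPM, the level in basophil-like cells of TS, which rests on 3 UMIs. 2 unnamed clusters of TS stood above this: cluster 7, led by *Trnp1* and *Hes1*, had 61.4 CPM in 760 cells, and cluster 26, of few UMIs per cell, had 85.9 in 76 cells. Of the unnamed clusters of CS, cluster 13 had 4.96 CPM in 526 cells and cluster 11 had 4.22 in 351 cells.

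Free RNA, taken from barcodes with at most 100 UMIs, held 3.01 CPM of *Gsta4* (CBM), 1.32 (TBM), 9.87 (CS), and 70.1 (TS). It was thus higher with the tumor in spleen, as in the erythroid cells there. With 10% of a group's UMIs subtracted as free RNA of its library, the spleen ratio was 2.62 in early erythroid and 1.81 in hemoglobin-rich cells. The actual part of free RNA in their values was not tested. In marrow, where the free RNA rests on 7 and 4 UMIs, the intervals of its levels overlapped. HSPC stood above free RNA in marrow and led the classes with at least 50 cells in *Gsta4* there, though their intervals met those of the next class, mast cells at 6.62 in CBM and hemoglobin-rich cells at 6.25 in TBM, while in CS their level was that of the free RNA within counting error. The level in early erythroid cells of TS was above that of the free RNA, and the non-erythroid classes of the same library, at most 8.24 CPM, were under it. Hemoglobin-rich cells of TS and the unnamed cluster 7 were also under it, and the unnamed cluster 26 was above it. After thinning, T, NK or innate lymphoid cells had a *Gsta4* UMI in 0 of 120 cells of CS, which allows up to 3.03% by its exact interval, and in 1.87% of 107 cells of TS [0.227, 6.59]. Before thinning, 2.46% of all 122 such cells of CS and 4.07% of all 123 of TS had a *Gsta4* UMI, at median depths of 12523 and 16599 UMIs.

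**Figure D2:**
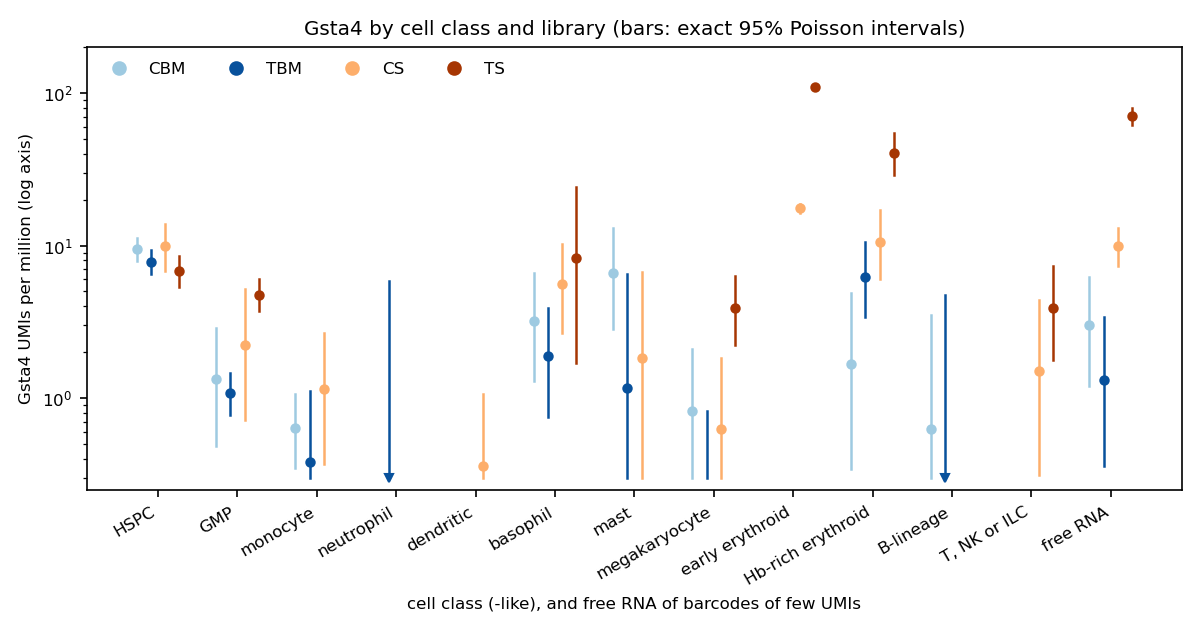
*Gsta4* level (CPM, log axis) by cell class, and in free RNA, for each library (colors). Points are levels and bars exact 95% Poisson intervals, cut off at 0.3 CPM at the lower end, and triangles mark groups with 0 UMIs. The TS point of early erythroid cells, at 109, lies above all others, and the TS point of free RNA, at 70.1, lies above all but that one.

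*Gclm* and *Gclc*, which make the ligase, had their levels in different orders of classes. *Gclm* was 34.1 CPM [25.7, 44.6] in B-lineage cells of CBM, 115 [109, 121] in HSPC, and 607 [572, 644] in hemoglobin-rich erythroid cells of the same library. The order of these classes was the same in TBM, with 33.4, 152, and 575 CPM. Hemoglobin-rich cells of CS had 646 CPM and those of TS had 613, and their intervals overlapped. Early erythroid cells followed with 405 [399.8, 411] in CS and 478 [473, 483] in TS, a log2 ratio of 0.24 [0.21, 0.26]. Within cluster 1 this ratio was 0.095 [0.03, 0.16]. Between HSPC and the erythroid classes lay unnamed clusters with intermediate levels. Cluster 2 had 189 in CBM, 198 in TBM, and 286 in TS. Cluster 11 had 294 in CBM and 259.7 in CS, and cluster 13 had 336 in CS.

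*Gclm* was higher with the tumor in 5 of 7 classes in spleen and in 6 of 8 in marrow. The interval of the ratio was above 0 in 5 and 5 of these. The share of all genes with such counts is not given here, and the classes of a tissue share the same libraries. The signs in megakaryocyte-like cells of both tissues, basophil-like cells of spleen, and B-lineage cells turned with the scaling or the weighing of cells. GMP-like cells had 113 CPM [103, 123] in CBM and 203 [199, 208] in TBM, a log2 ratio of 0.85 [0.72, 0.98]. In spleen they had 108 [94.6, 122] in CS and 239.5 [232, 248] in TS, a ratio of 1.15 [0.96, 1.35], though CS held only 50 such cells. Clusters 19 and 21, of few UMIs per cell, had GMP markers but were left unnamed, and with them the class held 131 cells in CS and 441 in TS and the spleen ratio was 0.98, just under 2-fold. Without these clusters, *Gclm* was the only member past 2-fold in spleen, where 2.43% of genes were, and in marrow no member of 7 was, against 1.53% of genes. With classes from single cells the *Gclm* ratio was past 2-fold in both tissues, at 1.151 in marrow and 1.305 in spleen. The clusters of GMP-like cells differed in their shares, with cluster 10 at 4.4% of these cells (CBM), 35.2% (TBM), 22.0% (CS), and 60.6% (TS). Within cluster 5, the marrow ratio was 0.98 [0.83, 1.13], from 118 CPM in CBM to 233 in TBM.

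Monocyte-like cells had 59.8 CPM of *Gclm* [56.6, 63.1] in CBM and 153 [144, 162] in TBM, a 2.56-fold difference and a log2 ratio of 1.35 [1.24, 1.47]. It was the only 1 of 7 members past 2-fold, against 3.66% of all genes. Here too the cells came from different clusters, since clusters 12 and 14 held 53.3% and 46.6% of the CBM cells and cluster 24 held 70.7% of the TBM cells. Within cluster 14 *Gclm* was 50.3 CPM in CBM and 92.6 in TBM, with a ratio of 0.88 [0.51, 1.24] that is under 2-fold. Monocyte-like cells of CS had 76.6 CPM, and TS held only 4 such cells.

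HSPC differed less, with 115 CPM [109, 121] in CBM and 152 [146, 159] in TBM, and with 111 [99.7, 123] in CS and 152 [145, 159.9] in TS. The ratios were 0.41 [0.31, 0.50] in marrow and 0.46 [0.30, 0.63] in spleen, and in both tissues the intervals of the levels lay apart. Different clusters held HSPC in spleen: clusters 0, 8, and 18 held 50%, 25%, and 25% of the CS cells and 6.5%, 53.9%, and 39.6% of the TS cells. In marrow, cluster 0 held 83.4% in CBM and 75.1% in TBM, and the ratio within it was 0.37 [0.25, 0.48]. Megakaryocyte-like cells of marrow had a ratio of 0.27 [0.14, 0.39], which was -0.06 when cells were weighed alike. In spleen, at 192 in CS and 291 in TS, they had a ratio of 0.60 [0.47, 0.72] that turned to -0.23 when cells were weighed alike. Within cluster 6, which held 84.4% of these cells in CS and 90.1% in TS, the ratio was 0.96 [0.81, 1.11]. T, NK or innate lymphoid cells of spleen had a ratio of 0.70 [0.36, 1.05], which was 0.52 [0.16, 0.885] within cluster 25. In basophil-like cells the ratio was 0.74 [0.39, 1.10] in marrow and -0.02 [-0.67, 0.59] in spleen, and hemoglobin-rich cells, at -0.08 in both tissues, did not differ beyond counting error. In free RNA *Gclm* was 92.0 CPM (CBM), 129.5 (TBM), 171 (CS), and 296 (TS), so it was higher with the tumor there as well. With 10% of a group's UMIs subtracted as free RNA of its library, the ratio in GMP-like cells was 1.21 in spleen and 0.875 in marrow. That in HSPC was then 0.39 in spleen and 0.40 in marrow. The 10% is a fixed setting, and the actual part of free RNA in the class values was not tested.

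**Figure D3:**
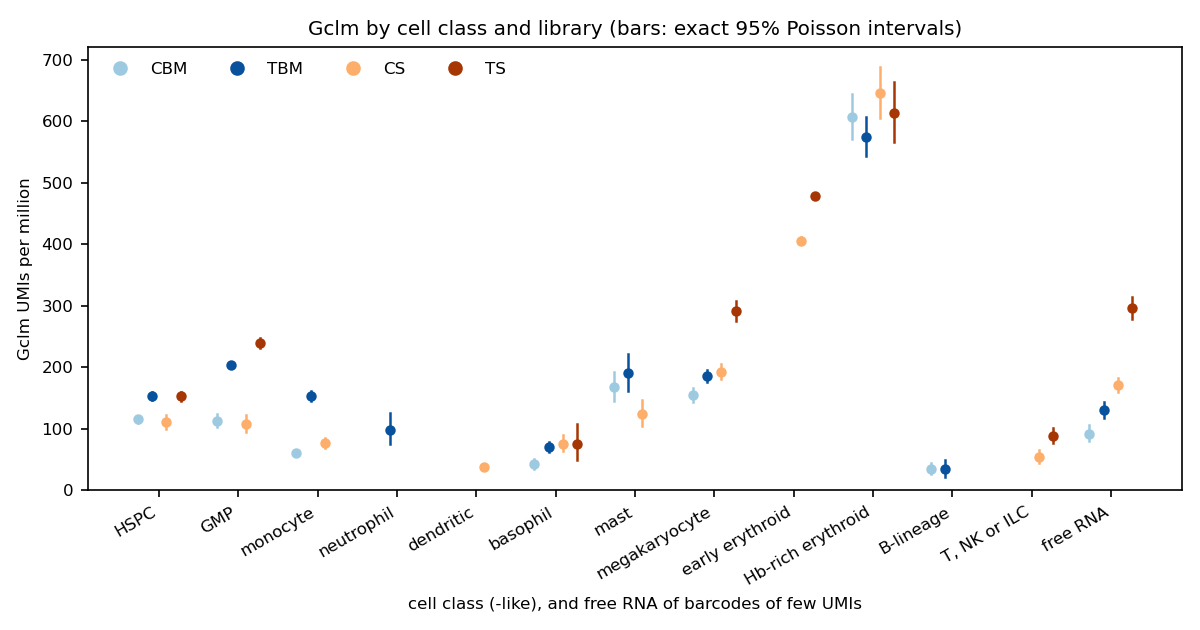
*Gclm* level (CPM) by cell class, and in free RNA, for each library (colors), as levels with exact 95% Poisson intervals. The erythroid classes lie highest, at 405 to 646, and the GMP-like points of TBM (203) and TS (239.5) lie above those of CBM (113) and CS (108).

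*Gclc*, the catalytic subunit, was high in hemoglobin-rich erythroid cells in every library, with 188 CPM (CBM), 198 (TBM), 195 (CS), and 196 (TS), whose intervals overlapped. Basophil-like cells had 81.6 to 102 CPM and HSPC 45.3 to 52.6. The lowest level was 9.51, from 6 UMIs, in the 53 neutrophil-like cells of TBM. It passed no 2-fold difference in any class, and its highest ratio was 0.77 [0.37, 1.17] in B-lineage cells of marrow, from 74.0 in CBM to 126 in TBM. In early erythroid cells it was 59.0 in CS and 72.4 in TS, a ratio of 0.30 [0.23, 0.36], but within cluster 1 the sign was the other way, at -0.17 [-0.33, -0.02]. Across the 34 groups the levels of *Gclc* and *Gclm*, as log2(CPM + 5), had a Pearson correlation of 0.43, as a description, since groups share libraries and classes.

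*Gpx1* was the peroxidase with the clearest order of classes. In CBM it stood at 3764 CPM [3675, 3855] in hemoglobin-rich erythroid cells, 2150 [2107, 2193] in GMP-like, 1971 [1952, 1990] in monocyte-like, 891 [875, 907] in HSPC, 505 [486, 526] in megakaryocyte-like, and 399.6 [369, 432] in B-lineage cells. Basophil-like cells (1377) and mast cells (1247) lay between monocyte-like cells and HSPC. In CBM no class overlapped the next in its interval. With the tumor *Gpx1* was lower in 6 of 7 classes in spleen and in 6 of 8 in marrow. The interval of the ratio was under 0 in 4 and 5 of these. The share of all genes with such counts is not given here, and the classes of a tissue share the same libraries. The ratio of -0.02 in T, NK or innate lymphoid cells of spleen turned above 0 with TMM scaling. Within cluster 25 of these cells it was -0.21 [-0.31, -0.11]. In basophil-like cells of marrow the ratio was -0.21 over the class but 0.19 [0.11, 0.28] within cluster 4. In GMP-like cells of marrow it was -0.13 over the class, -0.01 [-0.05, 0.02] within cluster 5, and -0.14 [-0.23, -0.04] within cluster 23. Monocyte-like cells of marrow had -0.06 over the class and -0.37 [-0.45, -0.30] within cluster 14. The ratios furthest under 0 were those of erythroid cells in both tissues. Hemoglobin-rich cells had 3764 in CBM and 2798 in TBM, a log2 ratio of -0.43 [-0.48, -0.38], and 3857 in CS and 2605 in TS, a ratio of -0.57 [-0.63, -0.50]. Early erythroid cells had 1001 [993, 1010] in CS and 725 [719, 730.4] in TS, with -0.47 [-0.48, -0.45] overall and -0.64 [-0.68, -0.60] within cluster 1. In HSPC the 4 levels lay between 891 and 965. These erythroid differences are under 2-fold and opposite in sign to that of *Gsta4* in the same cells.

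*Prdx2* was highest in hemoglobin-rich cells in every library, with 3669 CPM (CBM), 3798 (TBM), 4004 (CS), and 3534 (TS). Early erythroid cells had 621 in CS and 638 in TS, HSPC 338 to 382, and neutrophil-like cells 38.1. The early erythroid ratio was 0.04 [0.02, 0.06] over the class and -0.62 [-0.66, -0.58] within cluster 1, from 1154 in CS to 752 in TS, so that it depended on which cells were set side by side. In B-lineage cells it was 371 in CBM and 243 in TBM, a ratio of -0.61 [-0.86, -0.37]. T, NK or innate lymphoid cells had 322 in CS and 438 in TS, a ratio of 0.44 [0.30, 0.59]. Within cluster 25 of these cells it was 0.29 [0.14, 0.44].

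*Nqo1* was also highest in erythroid cells. It had 33.2 CPM [31.6, 34.8] in early erythroid cells of CS and 35.03 [33.8, 36.4] in those of TS, a log2 ratio of 0.08 [-0.01, 0.17]. Thinned to 5000 UMIs, 15.5% of the CS cells and 15.2% of the TS cells had a *Nqo1* UMI, and their intervals overlapped. *Gsta4* in the same cells, by the same thinning, differed between the libraries. Hemoglobin-rich cells had 18.9 (CBM), 16.1 (TBM), 22.4 (CS), and 33.6 (TS) CPM, and of these intervals only those of TBM and TS lay apart. HSPC had 1.81 to 3.30 and GMP-like cells 0.221 to 1.74 CPM. Megakaryocyte-like cells had 2.04 (CBM), 2.83 (TBM), 6.05 (CS), and 13.2 (TS). Free RNA held 3.44 (CBM), 0.991 (TBM), 17.6 (CS), and 25.2 (TS), and in both spleens this was above the level of *Nqo1* in every named class outside the erythroid cells. The part of free RNA in those levels was not tested.

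**Figure D4:**
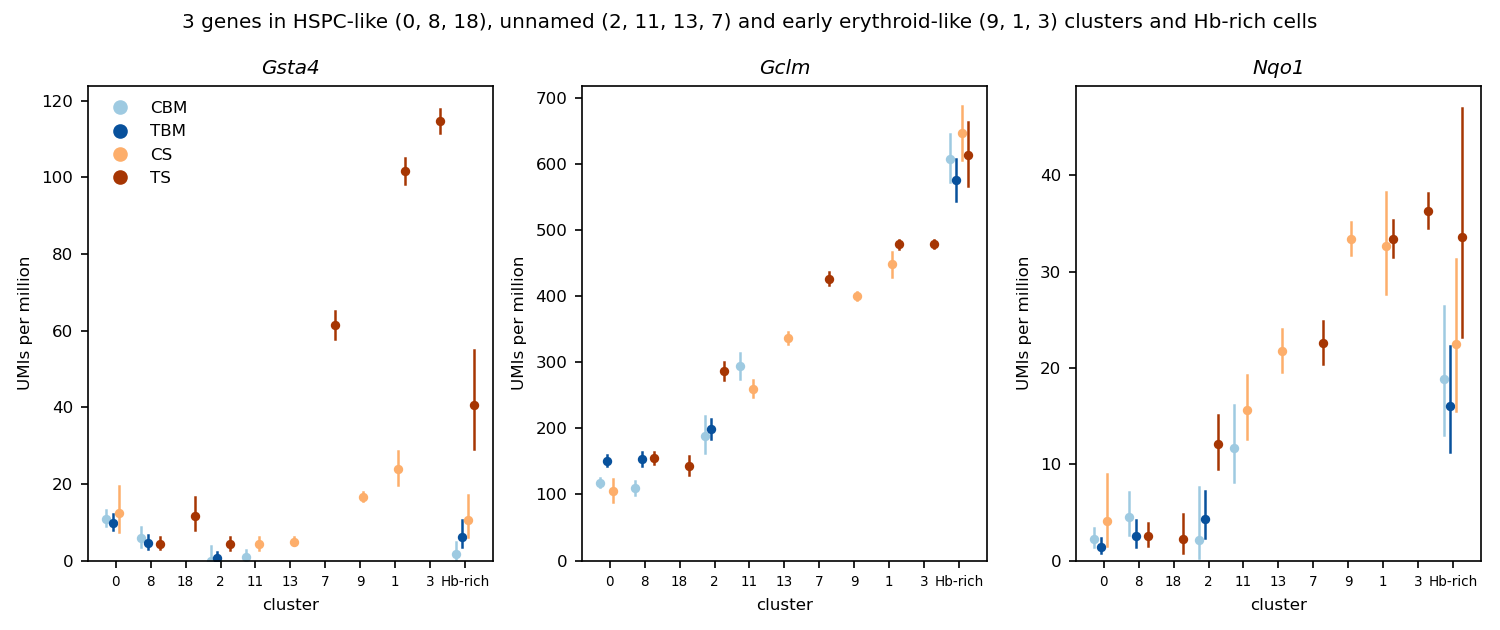
CPM of *Gsta4*, *Gclm*, and *Nqo1* by cluster and library (colors), with exact 95% Poisson intervals, and the hemoglobin-rich cells at the right. The order of the clusters, with HSPC-like clusters first and early erythroid-like ones last, was set by hand. *Gclm* was 259.7 or more in clusters 11, 13, 7, 9, 1, and 3 and 575 or more in hemoglobin-rich cells, and *Gsta4* was 61.4, 102, and 115 in clusters 7, 1, and 3 of TS.

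*Txnrd1*, unlike the genes above, was not highest in erythroid cells. The leading classes were HSPC, with 124 CPM (CBM), 153 (TBM), 139.7 (CS), and 175 (TS), and T, NK or innate lymphoid cells, with 151 in CS and 166 in TS. The interval of HSPC met that of megakaryocyte-like cells, the next class, in CBM (120) and in CS (132.5). In TBM (139) the intervals lay apart. Hemoglobin-rich cells had 56.1 to 68.1. In HSPC the ratio was 0.30 [0.21, 0.39] in marrow and 0.33 [0.18, 0.48] in spleen, and in GMP-like cells 0.68 [0.51, 0.86] and 0.46 [0.26, 0.67]. In early erythroid cells it was lower with the tumor, at 74.0 in CS and 62.0 in TS, a ratio of -0.26 [-0.32, -0.19].

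Basophil-like cells of CBM had the lowest *Txnrd1*, and the class had its 1 ratio past 2-fold, with 26.6 CPM [20.2, 34.4] in CBM and 55.8 [48.4, 63.9] in TBM. The log2 ratio of 1.07 [0.64, 1.51] over the class was 0.86 [0.24, 1.48] within cluster 4. Cluster 4 held 90.4% of these cells in CBM and 50% in TBM, and cluster 20 the rest. In spleen they had 30.3 in CS and 46.7 in TS, with 17 UMIs in TS and a ratio of 0.62 [-0.26, 1.43]. Past 2-fold were 9.67% of all genes in the marrow comparison of this class and 17.9% in that of spleen, where no member of 7 was, so that 1 member of 7 in marrow is near the background.

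*Sod2*, the mitochondrial superoxide dismutase, was higher with the tumor in all 7 classes compared in spleen and in 7 of 8 in marrow. The intervals of the ratios lay above 0 in 5 and 5 of these, and no ratio reached 2-fold. The classes of a tissue share the same libraries, so they are not independent repeats. The share of all genes with such counts is not given here. Within a cluster some were smaller. In marrow, basophil-like cells had 0.42 over the class and 0.20 [-0.17, 0.56] within cluster 4. Monocyte-like cells of marrow had 0.30 over the class and 0.17 [-0.17, 0.50] within cluster 14. The ratio in GMP-like cells of marrow was 0.51 [0.35, 0.665] within cluster 5, and that in early erythroid cells of spleen was 0.21 [0.11, 0.31] within cluster 1. In GMP-like cells it was 111 CPM (CBM), 159 (TBM), 126 (CS), and 193 (TS), with ratios of 0.52 [0.39, 0.65] in marrow and 0.61 [0.44, 0.80] in spleen. HSPC had 101 (CBM), 117 (TBM), 98.7 (CS), and 136 (TS). The highest ratio was that of T, NK or innate lymphoid cells of spleen, 0.87 [0.58, 1.16], from 74.7 to 136. The exception was B-lineage cells, with 65.8 in CBM and 48.8 in TBM and a ratio of -0.43 [-1.01, 0.12]. Free RNA held 103 CPM of *Sod2* (CBM), 155 (TBM), 168 (CS), and 211 (TS), which moved the same way. With 10% free RNA subtracted, the ratio in HSPC was 0.49 in spleen and 0.16 in marrow, against 0.46 and 0.21 without. The actual part of free RNA in the class values was not tested.

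*Cat*, for catalase, was 157 CPM [139, 178] in B-lineage cells of CBM and 79.7 [61.1, 102] in those of TBM, a ratio of -0.98 [-1.41, -0.58], just inside 2-fold. Past 2-fold was its ratio in hemoglobin-rich cells of marrow, 1.10 [0.67, 1.54], from 34.4 [26.4, 44.1] in CBM to 73.7 [62.9, 85.8] in TBM. It was 0.79, under 2-fold, with the minimum of 350 genes per barcode that the study's methods give. In spleen the same cells had 46.8 in CS and 43.5 in TS, a ratio of -0.11 [-0.69, 0.45]. In HSPC *Cat* was 57.9 in CBM and 47.8 in TBM, a ratio of -0.28 [-0.43, -0.13].

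*Srxn1* was near the limit of detection. Megakaryocyte-like cells were the only class above 10 CPM, with 14.7 [11.5, 18.5] (CBM), 5.78 [4.31, 7.60] (TBM), 12.3 [9.37, 15.9] (CS), and 10.8 [7.82, 14.5] (TS). The ratio of TBM to CBM was -1.35 [-1.90, -0.81] over the class. Within cluster 6, which held 94.1% of these cells in CBM and 99.1% in TBM, the levels were 8.11 and 5.23 CPM and the ratio -0.63 [-1.28, 0.02], under 2-fold. In the same cluster CS had 4.96 and TS 4.50 CPM, so that TBM was not under the spleens there. The remaining cells were in cluster 28, led by *Ppbp*, which held 5.9% of the class (CBM), 0.9% (TBM), 15.6% (CS), and 9.9% (TS).

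**Figure D5:**
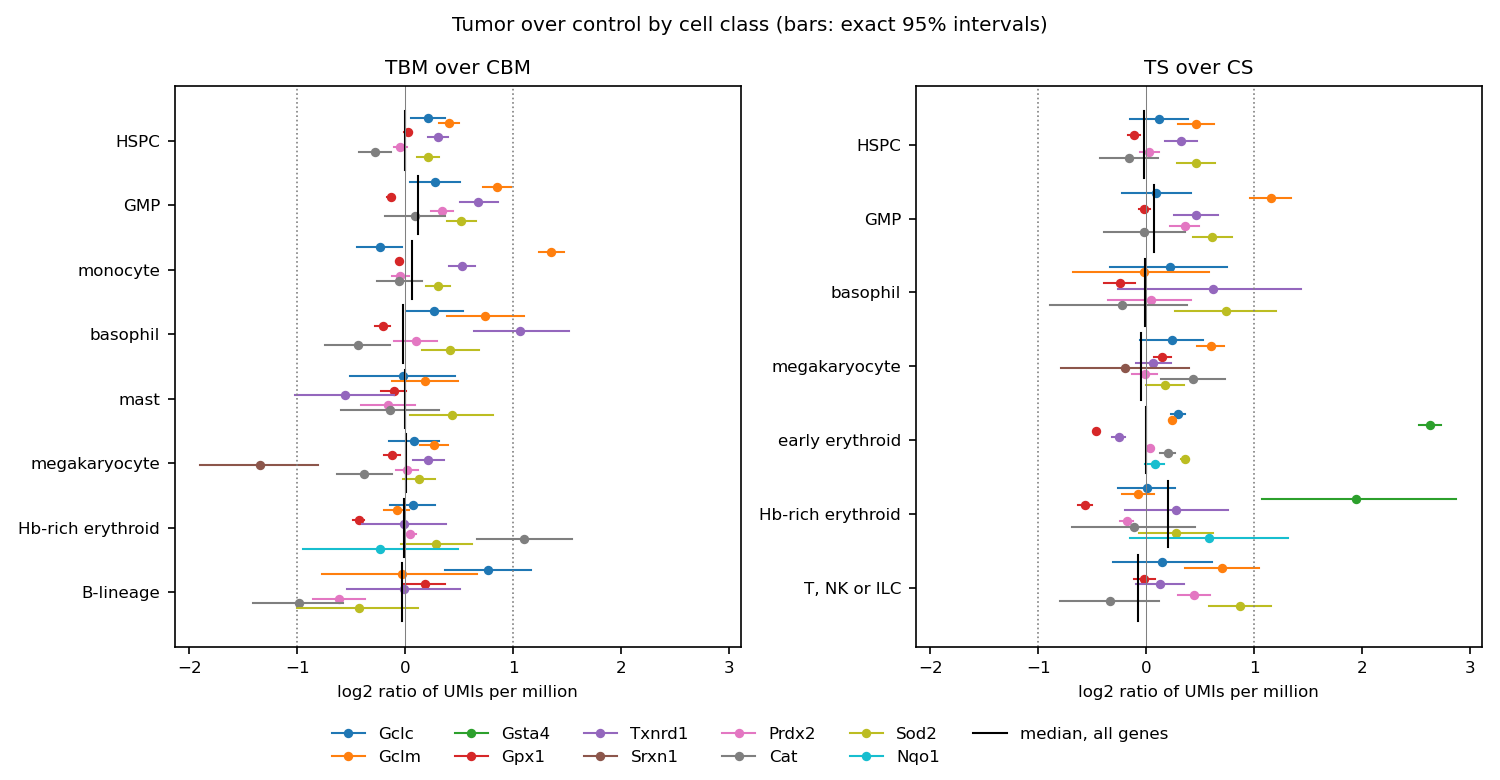
Log2 ratio of CPM for each of the 10 genes (colors) by cell class, with TBM over CBM at the left and TS over CS at the right, for genes with a mean of at least 10 CPM. Bars are exact 95% intervals, black lines the median of all genes, and dotted lines 2-fold. *Gsta4* in early erythroid cells (2.63) and hemoglobin-rich cells (1.94) of spleen lies farthest to the right.

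Counted over classes, 3 of 54 ratios of the members were past 2-fold in spleen, all higher in TS, and 4 of 58 in marrow, 3 higher and 1 lower in TBM. These are 5.56% and 6.9% of the members' ratios, against 6.22% and 4.35% of the ratios of all genes over the same classes, so the counts are near the background. In HSPC none of the 7 members with enough UMIs was past 2-fold in marrow, in spleen, or between the tissues, against 0.836% of all genes for TBM over CBM, 1.39% for TS over CS, 1.12% for spleen over marrow of controls, and 0.97% for the same in tumor-bearing mice. The median ratio of the members in HSPC was 0.21 in marrow and 0.12 in spleen, and that of all genes was -0.003 and -0.02. In hemoglobin-rich cells 1 of 9 members was past 2-fold in spleen, against 8.1% of genes, and 1 of 8 in marrow, against 2.1%. Between the tissues of tumor-bearing mice 2 of 9 were, against 7.63% of genes, both higher in TS: *Gsta4*, with a ratio to TBM of 2.70 [1.79, 3.69], and *Nqo1*, with 1.06 [0.34, 1.78], which was 0.81 with TMM scaling. The median ratio of all genes there was 0.25. Free RNA of *Gsta4* and *Nqo1*, given above, was also higher in TS than in TBM, and its actual part in these ratios was not tested. *Gsta4*, at 6.25 CPM in TBM and 40.5 in TS, met the minimum mean of 10 CPM only through TS, where it was high. Its place in this count therefore says nothing beyond its ratio. In megakaryocyte-like cells 0 of 8 members were past 2-fold in spleen (2.0% of genes) and 1 of 8 in marrow (1.15%). That 1 was *Srxn1*, at 14.7 CPM in CBM and 5.78 in TBM, which met the minimum mean only through CBM, where it was high. *Nqo1* in these cells of spleen, at 6.05 CPM in CS and 13.2 in TS, was under the minimum mean and was not counted. B-lineage and mast cells of marrow and T, NK or innate lymphoid cells of spleen had 0 of 7, against 9.79%, 5.57%, and 11.1% of genes.

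The 61 other genes of the pathways were mostly within 2-fold as well. Over all classes 7 of 283 ratios were past 2-fold higher and 9 lower in TS than in CS, and 6 of 319 were higher and 6 lower in TBM than in CBM. Both shares, 5.65% in spleen and 3.76% in marrow, are near the 6.22% and 4.35% of all genes. In HSPC 1 of 44 was past 2-fold in spleen (lower) and 0 of 43 in marrow, against the 1.39% and 0.836% of all genes given above. In early erythroid cells 1 of 40 was (lower), against 0.902% of all genes, and 0 were higher, against 0.153%. In hemoglobin-rich cells of spleen, where *Gsta4* was also past 2-fold, 2 of 35 were past 2-fold higher, *Prdx6* among them, against 6.41% of all genes. The 20 peroxidases and transferases, of which 7 were measured in early erythroid cells, had a median ratio of 0.12 there, the 10 thioredoxins and peroxiredoxins, all measured, 0.15, and the genes of glutathione synthesis, reduction, and import, 7 of 8 measured, 0.11. The genes of NADPH supply, 4 of 6 measured, stood at 0.16, and other NRF2 targets, 4 of 7 measured, at 0.23. The NRF2 regulators, 7 of 8 measured, stood at -0.12 and the 1 measured superoxide dismutase of 2 at -0.14, and the median of all genes was -0.004.

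Of those named by the rule for large ratios, another glutathione transferase differed most. *Gstm1*, a mu-class transferase, was 688 CPM [654, 724] in basophil-like cells of CBM and 98.3 [88.5, 109] in TBM, and 954 [909.5, 1001] in CS and 107 [76.1, 146] in TS. It was lower with the tumor in both tissues, with ratios of -2.81 [-2.98, -2.64] and -3.16 [-3.65, -2.70]. In spleen the cells came in different shares from cluster 20, 1.7% in CS and 31.8% in TS, and cluster 4 of TS held under 50 cells, so no ratio within a cluster is given there. Within cluster 4 the marrow values were 810.4 and 139 CPM, and free RNA held 224 in CBM and 218 in TBM. *Glrx*, a glutaredoxin, was higher in basophil-like cells of TS than of CS, at 82.4 and 20.8, from 30 and 37 UMIs and with the same difference in clusters. *Gsto1*, an omega-class transferase, was also higher in these cells, at 68.6 and 32.5, from 25 and 58 UMIs. *Abcc1*, an exporter of glutathione conjugates, was lower in them, at 41.2 and 83.0, from 15 and 148 UMIs. Its ratio of -1.01 [-1.88, -0.24] was just past 2-fold. Of the 20 peroxidases and transferases 8 were measured in basophil-like cells of spleen, 1 past 2-fold higher and 2 lower, and 9 in those of marrow, 2 higher and 2 lower. Of all genes, 17.9% were past 2-fold in these cells of spleen and 9.67% in those of marrow. *Idh1*, which supplies NADPH, was 35.3 in basophil-like cells of TBM and 81.6 in CBM. *Mgst2*, a microsomal transferase, was lower in GMP-like cells of TS, at 38.8, than of CS, at 107, a ratio of -1.46 [-1.68, -1.23], and it was 138 in CBM and 88.1 in TBM. In B-lineage cells it was 163 in CBM and 62.98 in TBM. *Gstm5* was higher in megakaryocyte-like cells of TS, at 108, than of CS, at 51.3, and *Prdx6*, a peroxiredoxin, in hemoglobin-rich cells of TS, at 243, than of CS, at 109. In T, NK or innate lymphoid cells *Glrx3* was 225 CPM in TS and 111 in CS. Between tissues, mast cells of CS had more *Sqstm1* and *Abcc1* than those of CBM, at 100.5 against 44.7 and 113 against 50.5, and megakaryocyte-like cells of TS had more *Blvrb* than those of TBM, at 149 against 66.9.

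The genes whose pattern over the 34 groups was most like that of a member were found among 3078 genes with a mean of at least 50 CPM, by the Pearson correlation of log2(CPM + 5). For *Prdx2* they were *March5* (0.97), *Ubac1* (0.97), and *Alad* (0.95), the last a heme synthesis enzyme. For *Nqo1* they were *Ermap* (0.91), *Klf1* (0.91), and *C1qtnf12* (0.90), of which *Klf1* is an erythroid transcription factor. *C1qtnf12* was also the first for *Gsta4*, at 0.79, followed by *Aplp2* and *Minpp1*. *Gclm* ran with *Cox6b2* (0.88), *Ifrd2* (0.88), and *Atpif1* (0.88), and *Sod2* with *Nop14* (0.88), *Hsp90aa1* (0.88), and *Ndufs7* (0.87). *Txnrd1* ran with *Stmn1* (0.88), *Txlna*, and *Smarcc1*, *Gclc* with *Slc25a51* (0.82), *Smap1*, and *Ctse*, *Gpx1* with *Reep5* (0.78), *Fam241a*, and *Ctsb*, *Cat* with *Nfatc3* (0.78), *Nipbl*, and *Zmynd8*, and *Srxn1* with *Kif2a* (0.78), *Oip5os1*, and *1810058I24Rik*. Among the members themselves *Nqo1* and *Gclm* (0.78) and *Prdx2* and *Gclc* (0.75) were the closest pairs, and *Txnrd1* and *Gclc* ran most apart (-0.34). The groups share libraries, classes, and depth, so these are descriptions of shared pattern only.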

How the data were processed

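The series holds 4 droplet scRNA-seq libraries, 1 per group. The authors aligned reads to mm10 and counted UMIs with Cell Ranger (version 4.0 in the submitters' processing notes), and the deposited values are whole-number UMI counts of every barcode, not normalized. The methods' later steps, SoupX at 10% and a minimum of 350 genes, are not in these counts. The matrices held 101811035, 135207987, 145301019, and 176094297 UMIs in CBM, TBM, CS, and TS.

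Barcodes with at least 1000 genes and at most 10% mt- UMIs were clustered on 17533 genes, without the members and the 61 pathway genes, by Pearson residuals (theta 100), 50 principal components, 20 neighbors, and Leiden at a resolution of 1.2 (Python 3.11.15, scikit-learn 1.9.0, leidenalg 0.10.2). A cluster was named from fixed markers with at least 3 of them raised (at least 2-fold over the other clusters and 20 CPM), at least 50 cells, a score of at least 0.8, and leading genes not of another class. Clusters 19 and 21 met these limits as GMP-like but stayed unnamed, since their cells had under 1/3 of their library's median UMIs and few GMP markers led them. These limits were set after seeing the clusters and their leading genes, among which *Gsta4* led cluster 3, though it was not used for clustering. No doublet caller was run, and leaving out the 5% deepest cells was an alternative. Member UMIs were summed per class and library and scaled to 1000000 UMIs of the group (CPM). 3′ UMIs count molecules and were not scaled by length. With 1 library per group there is no replicate, so no test was made and no p-value is given. Ratios have exact conditional 95% intervals, and "past 2-fold" is a log2 ratio of at least 1 either way with a mean of at least 10 CPM. Code was tested on simulated counts. TMM factors in the alternative came from edgeR 4.0.16.

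The members and lists were chosen with earlier results of these data known. The text names the 10 members, and of the other pathway genes per class and comparison at most 4 past 2-fold with a mean of at least 50 CPM, and the 3 genes most like each member. Other names were chosen after their values were seen.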

Additional observations from a re-analysis of the deposited data

Results flagged for a closer look

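3 pairs of ratios had opposite signs in spleen and marrow, each with an interval off 0, and the difference between the tissues was not tested. For *Prdx2* in hemoglobin-rich erythroid cells the log2 ratio was -0.18 for TS over CS and 0.05 for TBM over CBM. For *Gpx1* in megakaryocyte-like cells it was 0.15 and -0.12. For *Cat* in the same cells it was 0.43 and -0.38. All 6 values are under 2-fold, and with 1 library per group the spread between mice is unknown.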

How the results depend on the processing

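The other settings tried, among them 3 added after seeing the data (within 1 cluster, without barcodes shared between libraries, and with clusters of few UMIs named), turned the sign of none of the 7 ratios past 2-fold. A value within 1 of several clusters was had for 4 of the 7, and *Gclm* in GMP-like cells of spleen (1.15) had none, since no cluster held 50 of these cells in CS. It was 0.98 with clusters of few UMIs named. *Gsta4* in early erythroid cells (2.63) was 2.19 with at least 350 genes per barcode, 2.83 with cells weighed alike, and 2.09 within cluster 1. *Srxn1* in megakaryocyte-like cells (-1.35) was -1.998 with cells weighed alike and -0.63 within cluster 6. *Gclm* in monocyte-like cells (1.35) was 1.24 when scaled without hemoglobin, mt-, and ribosomal protein genes and 0.88 within cluster 14. The count past 2-fold in spleen (3) was 2 with a minimum of 50 CPM and 2 with clusters of few UMIs named. It was 4 with TMM scaling and 4 when scaled without hemoglobin, mt-, and ribosomal protein genes. Cells weighed alike, leaving out the 5% deepest cells, and classes from single cells each gave 5. It was 8 with no minimum level and 9 at 1.5-fold. That in marrow (4) was 2 with a minimum of 50 CPM, 8 with none, and 10 at 1.5-fold. It was 3 at a cluster resolution of 0.6 and 6 with classes from single cells. At most 5% mitochondrial UMIs, 10% free RNA subtracted, cells weighed alike, and leaving out the 5% deepest cells each gave 5. The share of all genes was not computed at these settings, so these counts have no background. *Gclm* in GMP-like cells of spleen had no value without the 5% deepest cells, since CS then had under 50. Of 193 other ratios, 64 changed sign in at least 1 alternative. TMM scaling moved the median of all genes in hemoglobin-rich cells of spleen from 0.20 to -0.04. No paired analysis was possible because each group has 1 library.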
